A study of Homo sapiens with 30 samples.

Results

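Of 63580 consensus peaks of H3K27ac in OCI-Ly1 cells, 17809 lay deep inside genes. OCI-Ly1 is an established human cell line of diffuse large B-cell lymphoma. A deep intragenic peak was on chromosomes 1 to 22 or X, was shorter than 8000 bp, lay wholly inside a RefSeq gene, was more than 10 kb from both ends of every gene and overlapped no H3K4me3 peak. Successive steps of this rule left 63249, 62786, 41098, 19555 and 17809 peaks. The peaks were assigned to 3530 host genes, of which 1017 held 5 or more. The choice among called peaks used the positions of peaks and genes, and no read count or tested difference between treatments. The consensus peaks of both marks had themselves been called from signal in this study. Membership was therefore not independent of level.

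The study profiled chromatin by immunoprecipitation and sequencing (ChIP-seq) in cells given DMSO, the vehicle, or JIB-04 at a lower (150 nM) or higher (500 nM) dose. JIB-04 is a synthetic compound that blocks lysine demethylases of the Jumonji group. The same cell line was used throughout, with no genetic change named in the labels, and the treatment time is not given in the sources used here. There were 2 H3K27ac and 2 H3K4me3 libraries for each of the 3 treatments, and the deposited values were read counts per peak. The 6 H3K27ac libraries held 4360660 to 5410292 reads in peaks, of which 605894 to 720788 lay in deep intragenic peaks. Nothing in the labels says that the libraries came from separate cultures, so p-values measure only the spread between these libraries, which may be technical. The comparisons ask which deep intragenic sites gained or lost acetylation with the inhibitor and whether this depended on dose.

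Acetylation of histone H3 at lysine 27 is placed by the acetyltransferases CBP and p300 and marks active promoters and enhancers. Enhancers are commonly found in introns of long genes, and such an element may act on its host gene or on another gene nearby. H3K4me3 is found mainly at active promoters, so an acetylated site without it and far from gene ends has the marks of a distal element. Whether a peak lay in an exon or an intron was not analysed here.

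The sequences of the peaks are not shown, because no genome of their build was used. The 250 bases before the start of 3 host genes are printed to show the promoters to which the results below refer. KDM6A and SMARCA4 encode chromatin regulators whose summed deep peaks were lower at 500 nM, and DUSP22 encodes a phosphatase whose summed deep peaks were higher. The sequences are from RefSeq (GRCh38.p14), plus strand, 5′ to 3′, at chrX:44872938-44873187, chr19:10960780-10961029 and chr6:292237-292486. CG dinucleotides, which read the same on both strands, are in capitals.
KDM6A: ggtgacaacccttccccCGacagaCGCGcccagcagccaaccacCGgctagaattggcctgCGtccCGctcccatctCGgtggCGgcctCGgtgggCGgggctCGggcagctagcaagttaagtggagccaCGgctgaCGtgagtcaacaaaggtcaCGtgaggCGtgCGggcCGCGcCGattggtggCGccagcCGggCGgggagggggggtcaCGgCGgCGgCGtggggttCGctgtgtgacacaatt
SMARCA4: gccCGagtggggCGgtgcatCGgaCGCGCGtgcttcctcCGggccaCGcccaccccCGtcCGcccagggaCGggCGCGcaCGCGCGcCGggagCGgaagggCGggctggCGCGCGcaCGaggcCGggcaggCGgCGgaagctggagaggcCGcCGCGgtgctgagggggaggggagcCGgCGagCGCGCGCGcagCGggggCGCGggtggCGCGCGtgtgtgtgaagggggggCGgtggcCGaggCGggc
DUSP22: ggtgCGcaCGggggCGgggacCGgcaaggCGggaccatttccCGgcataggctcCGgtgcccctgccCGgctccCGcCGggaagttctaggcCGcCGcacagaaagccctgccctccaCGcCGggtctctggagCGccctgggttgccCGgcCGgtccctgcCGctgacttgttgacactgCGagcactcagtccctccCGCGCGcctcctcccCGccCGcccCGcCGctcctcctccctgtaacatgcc
All 3 stretches lay inside an H3K4me3 peak. They held 27, 44 and 26 CG dinucleotides, and 17.7%, 0.769% and 19.6% of 35116 RefSeq promoter stretches of this length held at least as many. The median stretch held 11, and 93.9% held at least 1.

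Deep intragenic peaks were short and weakly acetylated. Their median length was 397 bp, with quartiles of 266 and 736 bp, and 17.5% were longer than 1000 bp. Their median level in DMSO was 7.71 CPM (read counts scaled to library size) per kb of peak. It was 7.72 for 6287 intergenic peaks more than 10 kb from every gene, 8.50 for 3603 peaks at gene ends without H3K4me3 and 14.9 for 13112 peaks at gene ends with H3K4me3. The median count per deep peak was 14 to 16 reads in the 6 libraries, so single peaks carried a large counting error, and 13798 of the 17809 passed the filter on low counts.

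At the 10 kb limit of the rule, the 853 members in the first 1000 bp past it had a median level of 7.44 CPM per kb and a median length of 392 bp. The 911 intragenic peaks in the last 1000 bp short of it had 8.02 CPM per kb and 413 bp. Of all members, 35.7% lay 10 to 20 kb from the nearest gene end, 40.9% at 20 to 50 kb, 16.2% at 50 to 100 kb and 7.28% farther away. The median level fell little with distance, from 7.80 CPM per kb in the nearest group to 7.36 in the farthest.

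The strand of the host was known for 14192 peaks. With each gene cut into 3 equal lengths, 4633 peaks lay in the 5′ stretch, 5971 in the middle stretch and 3588 in the 3′ stretch. Per Mb of gene lying more than 10 kb from the host's own ends, these were 36.0, 38.2 and 27.9 peaks. By this measure deep peaks were sparsest towards the 3′ ends, but stretches near the ends of other genes were not taken out of the length. The median level was 7.69 CPM per kb in the 5′ stretch, 7.72 in the middle and 7.44 in the 3′ stretch.

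Chromosomes differed in how densely their gene interiors were marked. Over 975 Mb of gene sequence more than 10 kb from every gene end there were 18.3 deep peaks per Mb. The density was 29.5 per Mb on chromosomes 7 and 17, 27.1 on chromosomes 8 and 20, and 8.03 on chromosome X. Chromosome 7 held 1725 deep peaks and chromosome 2, with more room, 1593. The median level was 8.71 CPM per kb on chromosome 7 and 6.51 on chromosome X. The input libraries were not analysed here, so a part of DNA copy number in these values and in the host counts below was not tested.

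The 1017 hosts with 5 or more peaks held 13175 deep peaks, or 74.0%. Of these hosts 906 were protein-coding and 104 were long noncoding RNA genes. There were 1268 hosts with a single peak, 465 with 10 or more and 41 with 40 or more.

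The host with most deep peaks was CNTNAP2, a neurexin-family gene of the nervous system, with 112 peaks in 2304 kb. It was followed by MSI2, an RNA-binding protein of stem cells, with 92, RALYL, another RNA-binding protein, with 91, and ARHGAP24, a GTPase-activating protein of the cytoskeleton, with 89. TCF4, the B-cell E-protein transcription factor E2-2, held 83, CUX1, a homeobox repressor, 81, PCDH9, a protocadherin, 79, and TOX, an HMG-box factor, 75. The next were PRKCA, protein kinase C alpha, with 73, CDK14 with 67, SEMA3A, an axon guidance ligand, with 66, CAMK2D with 59, SSBP2 with 58, CSMD1 with 57 and DMD, the dystrophin gene, with 54. NAALADL2 and SNX29 held 52 each, CHD7, a chromatin remodeller, 51, EBF1, an early B-cell factor, and IMMP2L 50 each, and CDK6, a cell cycle kinase, 49. FOXP1, a forkhead factor of B cells, held 48, and RNGTT, UTRN and VAV3, an exchange factor downstream of antigen receptors, held 47 each.

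Many peaks did not mean dense or strong marking. CHD7 had 26.9 deep peaks per 100 kb of gene, TOX 23.9, CDK6 21.2 and MSI2 20.6, whereas CNTNAP2 had 4.86, CSMD1 2.77 and DMD 2.43. The median level per peak was highest in CUX1, at 12.3 CPM per kb, and CHD7, at 11.2, and lowest in FOXP1, at 5.83.

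**Figure D1:**
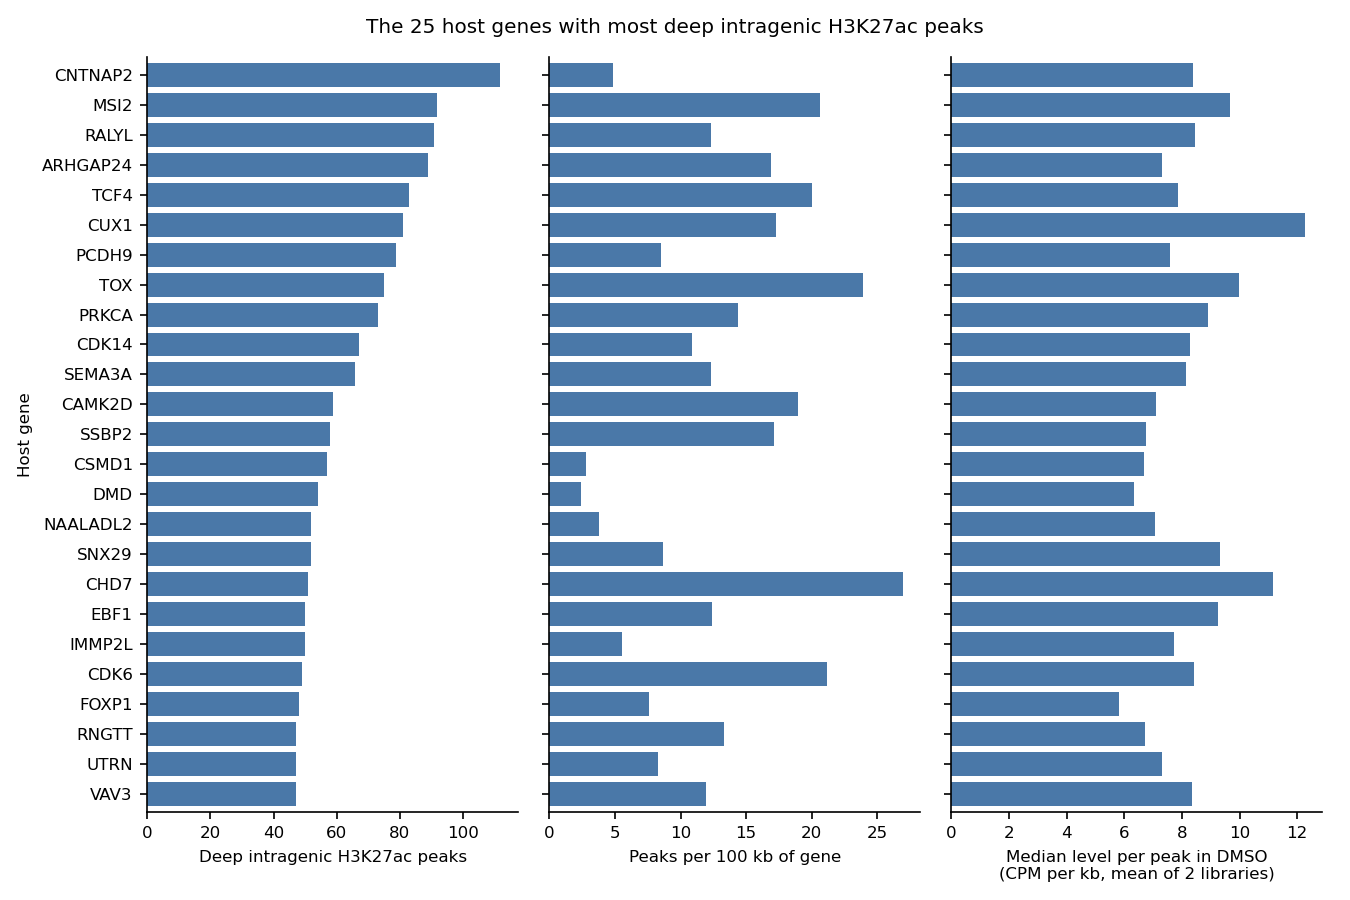
Bars give, for the 25 host genes with most deep intragenic H3K27ac peaks, the number of peaks (left), the peaks per 100 kb of gene (middle) and the median DMSO level per peak in CPM per kb (right, mean of 2 libraries). CNTNAP2 leads in number with 112 peaks but has 4.86 per 100 kb, whereas CHD7 has 26.9.

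An H3K4me3 peak lay within 1 kb of an end of the gene in 763 of the 1017 hosts with 5 or more peaks. CNTNAP2, RALYL, TCF4, PCDH9, SEMA3A and CSMD1 were the 6 of the leading 25 without one. TCF4 held 13 H3K4me3 peaks elsewhere in the gene, and CNTNAP2 held 7. In 79 hosts with 728 deep peaks no H3K4me3 peak lay in the gene or within 1 kb of it. Their deep peaks had a median level of 7.35 CPM per kb, against 8.02 in the other 938 hosts, and stood at 4.05 against 6.48 per 100 kb of gene.

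The strongest deep peaks per kb were in NDUFAF6, a mitochondrial complex I assembly factor, where 3 peaks stood at 37.1, 35.2 and 35.0 CPM per kb in DMSO. LINC01484, a long noncoding RNA, followed at 37.0, MBP, the myelin basic protein gene, at 36.9, ARHGAP24 at 36.3, DDX54, an RNA helicase, at 34.8 and CHD7 at 33.8. The ARHGAP24 peak at chr4:85554793-85559591 had 168 and 181 CPM in DMSO, 164 and 177 at 150 nM, against 177 and 176 at 500 nM. Its 3 groups overlapped, and none of these 8 peaks passed the test in any comparison, with log2 fold changes at 500 nM between -0.36 and 0.19.

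Markers of the labelled cell type were marked. Of 10 B-cell marker genes, PAX5, MS4A1 and CD79A among them, all 10 had both marks in or near the gene, as did 9 of 10 germinal centre genes; SERPINA9 had neither. Of 7 myeloid markers none had H3K27ac and CD14 had H3K4me3, while LYZ, CSF1R, ITGAM and MPO were among the 6 with neither mark. Of 8 T-cell markers CD3D had both marks, CD3E, CD2 and THEMIS had H3K27ac alone, CD3G had H3K4me3 alone, and BCL11B, GATA3 and CD5 had neither. Both marks were found at 5 of 6 plasma cell markers, 1 of 6 erythroid or megakaryocyte markers, 1 of 5 epithelial markers and 0 of 5 fibroblast markers. In the same order, H3K4me3 with or without H3K27ac was at 6, 2, 3 and 2 of them, and H3K27ac at 5, 1, 1 and 1.

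The number of deep peaks differed among the gene lists used here. B-cell and germinal centre transcription factors held 570 deep peaks in 26 of 34 genes, or 101 per Mb of their summed length. List densities here and below divide by whole gene length, unlike the chromosome densities above. No value over all genes was computed this way, so they do not show enrichment. Besides TCF4, EBF1 and FOXP1, those with 5 or more were BACH2 with 40, ARID5B with 38, NFATC2 with 33, IKZF2 with 31, LEF1 with 29, MEF2C with 28, ZEB2 with 26, ETS1 with 22, ELF1 with 21, IKZF1 with 20, ETV6 with 19, IKZF3 with 14, POU2F1 with 12, FLI1 with 11, PAX5 with 10, AFF3 with 9, RUNX1 with 8 and NFKB1 with 5. BCL6, IRF4, IRF8 and SPI1 held none, and their genes leave little or no room more than 10 kb from both ends.

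Genes of B-cell receptor signalling held 266 deep peaks in 19 of 33 genes, or 67.7 per Mb. After PRKCA and VAV3, CBLB, a ubiquitin ligase that restrains antigen receptors, and RASGRP3, an exchange factor for Ras, held 23 each. PLCG2, the phospholipase of the receptor, held 21, PIK3AP1 15, INPP5D, the phosphatase SHIP1, 13, PIK3R1 and SYK 10 each, PRKCB 8 and LYN 5. Migration and cytoskeleton genes held 245 in 13 of 26 genes. After ARHGAP24 these were ELMO1 with 31, SWAP70 with 24, RHOH with 19, RAPGEF1 with 18, P2RY8 with 16, ARHGAP25 with 15, ARHGAP15 with 12, GNA13 with 10 and DOCK2 with 7. GNA13 and P2RY8 act in the pathway that confines germinal centre B cells.

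Survival and cell cycle genes held 162 deep peaks, most of them in CDK14 and CDK6, with 22 in BCL2, 11 in BCL2L11 and 6 in BCL2L1. Chromatin regulators held 198 peaks in 26 of 44 genes, led by HDAC9 with 37, KMT2C with 22, EHMT1 with 20, ARID1B with 15, SMARCA4 with 12, ATF7IP and ARID1A with 11 each and EZH2 with 9. NSD2 held 8, KAT6B 7, HDAC1 6, and NCOR1, CREBBP and DNMT3B 5 each. Among 25 Jumonji-family demethylase genes 3 held 5 or more, KDM4C with 12, JMJD1C with 11 and KDM6A with 8. T-cell and natural killer cell genes held 121 peaks, or 61.5 per Mb, of which TOX had 75, CAMK4 27 and THEMIS 9. Their median level was 9.53 CPM per kb, against 8.13 for B-cell transcription factors and 7.96 for receptor signalling. The migration, survival, chromatin and Jumonji lists stood at 61.2, 72.0, 37.2 and 15.8 peaks per Mb. Myeloid genes held none, but only 6 of 16 exceeded 20 kb. The neuronal and fragile-site genes, long by choice, held 350 peaks at 9.59 per Mb, with CNTNAP2, DMD, ROBO2 with 43, NRG3 with 41, ERBB4 with 24, DLGAP1 with 21, FHIT with 14, PTPRD with 13 and DLG2 with 8.

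The deep peaks as a class held about the same share of reads under all treatments. Their share of reads in all H3K27ac peaks was 13.95% and 13.3% in the DMSO libraries, 13.94% and 12.6% at the lower dose and 13.4% and 13.1% at the higher dose. The groups overlapped, with means of 13.6% ± 0.443, 13.3% ± 0.949 and 13.3% ± 0.178 (SD, n = 2). In exact two-sided permutation tests p was 0.667 for either dose against DMSO and 1 between the doses, and the smallest value that 2 against 2 libraries can give is 0.333. DMSO replicate 2 and 150 nM replicate 2 had the lower share in their groups. On 5 unplaced contigs these libraries also had 71.5 and 45.9 CPM, against 322 to 446 CPM in the other 4, and a fit with this split as a library term was added after it was seen. Beyond that fit its part in the results was not tested.

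The level of deep peaks relative to other distal peaks differed little between libraries. Their median log2 CPM minus that of intergenic peaks was -0.14 and -0.067 in DMSO and -0.061 and -0.064 at 500 nM, with -0.064 and -0.13 at the lower dose. The 500 nM libraries both lay above the DMSO libraries, by 0.041 in the means, with the smallest p this design allows, 0.333 (exact permutation test, two-sided). Against gene-end peaks without H3K4me3 it was -0.27 and -0.31 in DMSO and -0.28 and -0.35 at 500 nM, which overlapped (p = 0.667, exact permutation test).

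**Figure D2:**
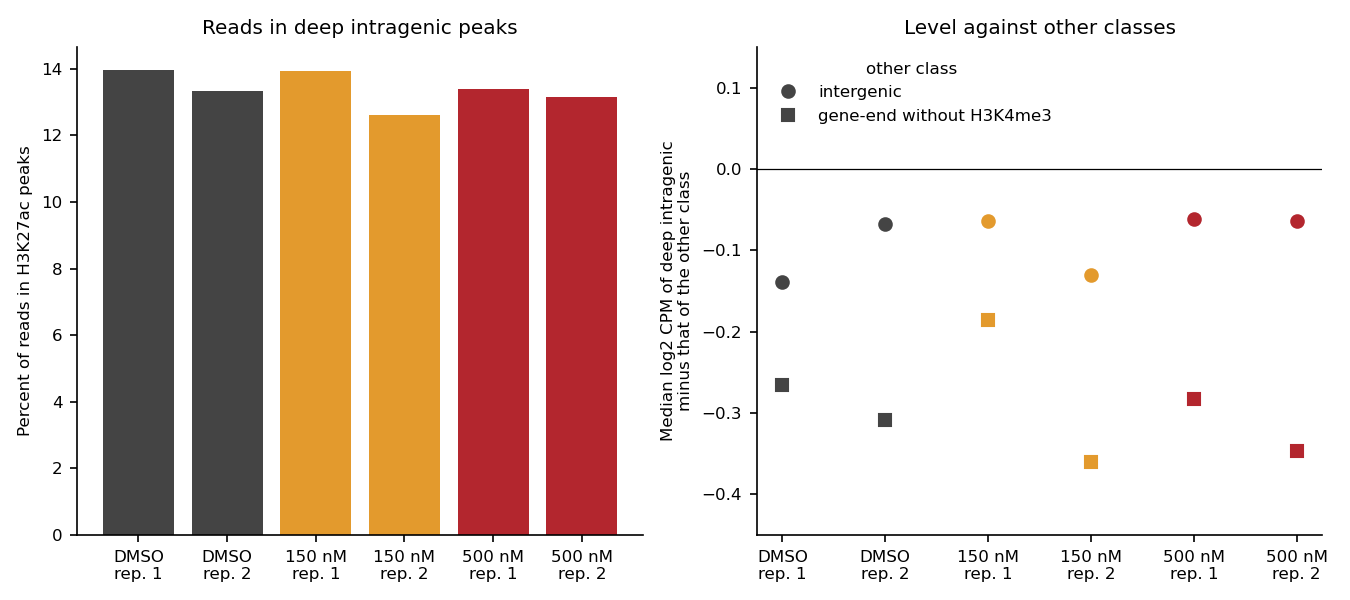
Percent of reads in H3K27ac peaks that lay in deep intragenic peaks, 1 bar per library (left), and median log2 CPM of tested deep peaks minus that of tested intergenic peaks (circles) and of tested gene-end peaks without H3K4me3 (squares), 1 point per library (right). Shares range from 12.6% to 13.95%, and both circles at 500 nM (-0.061 and -0.064) lie just above those of DMSO.

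At 500 nM JIB-04 against DMSO, 72 deep peaks rose and 24 fell (edgeR quasi-likelihood test, adjusted p under 0.05) of 13798 tested. The shares were 0.522% and 0.174%, against a background of 0.692% and 0.231% over all 54037 tested H3K27ac peaks, so calls were not more frequent among deep peaks. The rises lay in 66 host genes and the falls in 22. Both 500 nM libraries were beyond both DMSO libraries in all 96. The test that chose these peaks favours such separation, so here and below it describes the calls and adds no support. The median log2 fold change of rises was 0.96 (range 0.38 to 2.33) and that of falls -0.67 (range -1.002 to -0.40). Called peaks were longer than the class, with median lengths of 1547 bp for rises and 2336 bp for falls. In DMSO the rises stood at a median of 6.98 CPM per kb and the falls at 15.5, against 7.71 for all deep peaks. The DMSO level was part of the comparison that chose these peaks, so it was not independent of the direction of the call. Calls also depended on read count, with 45 rises and 19 falls in the highest of 5 count groups and 0 of either in the lowest.

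Over all tested deep peaks the median log2 fold change was -0.059, against -0.0040 over all tested peaks, -0.10 for intergenic peaks and 0.065 for gene-end peaks with H3K4me3. It was -0.038 for deep peaks 10 to 20 kb from a gene end, -0.062 at 20 to 50 kb, -0.075 at 50 to 100 kb and -0.095 beyond. In 5 groups of rising read count it was -0.098, -0.044, -0.063, -0.048 and -0.049. The median for all deep peaks was 0.0039 without DMSO replicate 1 and between -0.11 and -0.064 without any other single library.

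**Figure D3:**
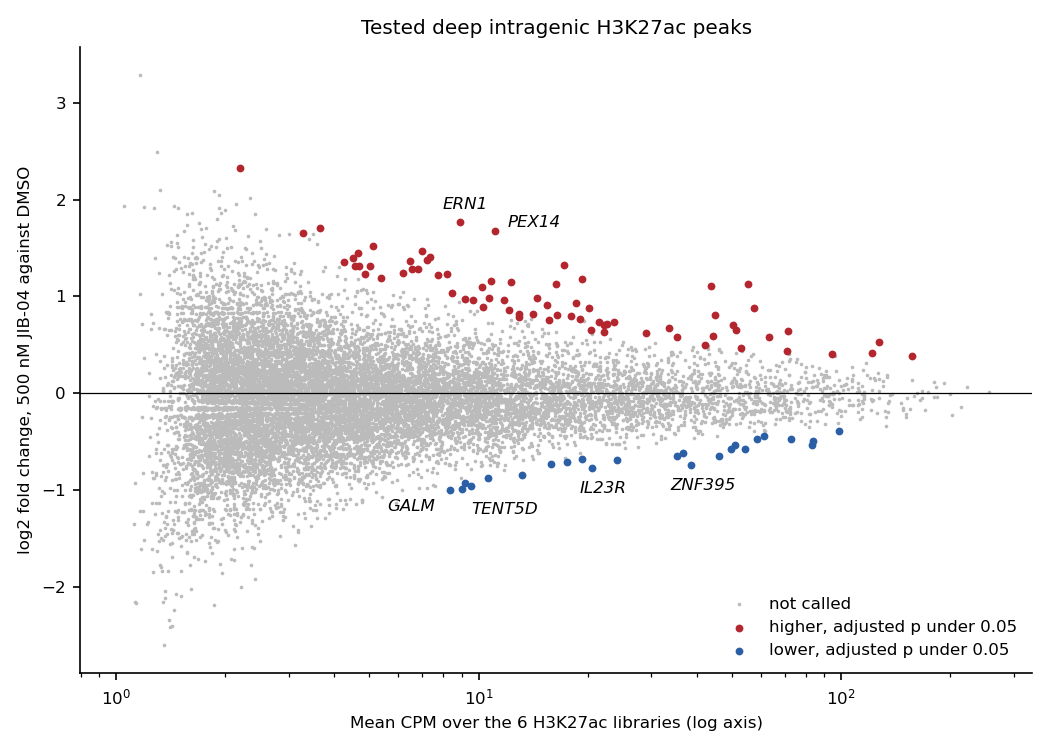
Each point is 1 of 13798 tested deep intragenic peaks, with its mean CPM over 6 libraries on a log axis and its log2 fold change at 500 nM JIB-04 against DMSO. The 72 higher peaks (red) and 24 lower peaks (blue) lie outside a wide band of peaks that were not called, and the band narrows with level.

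The largest rises were in genes of several functions. ERN1, which encodes the stress sensor IRE1 of the endoplasmic reticulum, had 2 peaks that rose. The one at chr17:64081767-64082933 had 3.68 and 5.62 CPM in DMSO, 6.59 and 5.09 at 150 nM, against 16.8 and 15.4 at 500 nM. Both 500 nM libraries were above all others, and the log2 fold change was 1.77 ± 0.25 (SE; adjusted p = 8.08e-06). The other, at chr17:64073601-64077615, had 34.5 and 32.3 CPM in DMSO, 28.3 and 23.4 at 150 nM, against 65.7 and 78.2 at 500 nM, a log2 fold change of 1.11 ± 0.13 (adjusted p = 1.07e-07). Here too no other library reached the 500 nM levels.

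PEX14, a component of the peroxisomal import machinery, rose at chr1:10555343-10557032. Its levels were 7.82 and 6.02 CPM in DMSO, 4.46 and 4.52 at 150 nM, against 22.0 and 21.9 at 500 nM. The groups did not overlap, and the log2 fold change was 1.67 ± 0.22 (adjusted p = 9.31e-07). GRIK5, a kainate receptor subunit, had 5.52 and 4.21 CPM in DMSO, 2.55 and 2.64 at 150 nM, against 11.7 and 15.3 at 500 nM, a log2 fold change of 1.47 ± 0.26 (adjusted p = 0.00052). In both genes the 150 nM libraries were the lowest.

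BCAR3, an adaptor of integrin signalling, had 2 rising peaks. The peak at chr1:93758884-93759358 was the largest rise of all deep peaks, 2.33 ± 0.58, but from 1.38 and 0.401 CPM in DMSO to 3.58 and 5.28 at 500 nM. The other, at chr1:93715337-93716110, went from 3.22 and 2.81 to 8.10 and 8.41 CPM, a rise of 1.45 ± 0.33. RCAN1, a regulator of calcineurin, rose by 1.41 ± 0.26, from 4.83 and 4.81 to 14.7 and 10.95 CPM. CTTN, the actin-binding protein cortactin, rose by 1.52 ± 0.32, from 2.99 and 3.01 to 7.16 and 10.2 CPM. None of these pairs overlapped between DMSO and 500 nM.

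The remaining peaks of the leading 10 rises were in PSME4, a proteasome activator, at 1.71 ± 0.41, ENPP6, a choline phosphodiesterase, at 1.65 ± 0.41, and PTPN1, the tyrosine phosphatase PTP1B, at 1.40 ± 0.35. In PTPN1 the level was 2.30 and 2.81 CPM in DMSO, 3.82 and 4.52 at 150 nM, against 7.16 and 6.45 at 500 nM, so that the 150 nM libraries lay between the other groups. PSME4 had the same order, with 1.84 and 1.60, then 3.19 and 3.96, then 6.59 and 4.69 CPM. Besides BCAR3 and ERN1, the hosts with 2 rising peaks were RBM20, OTUD5, AOPEP and JAKMIP1.

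The falls were smaller than the largest rises. The largest was in GALM, galactose mutarotase, at chr2:38708813-38709478, with 12.2 and 10.6 CPM in DMSO, 6.80 and 9.05 at 150 nM, against 4.71 and 6.65 at 500 nM. DMSO and 500 nM did not overlap, and the log2 fold change was -1.002 ± 0.26 (adjusted p = 0.0388). SEMA3A, with 66 deep peaks, had 1 that fell, from 13.8 and 12.2 CPM to 5.84 and 7.24, by -0.99 ± 0.24. IL23R, a cytokine receptor chain, fell from 28.7 and 23.7 to 16.2 and 14.3 CPM, a log2 fold change of -0.77 ± 0.18. ZNF395, a zinc finger gene, fell from 43.9 and 53.7 to 34.5 and 24.1 CPM, a log2 fold change of -0.74 ± 0.15.

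The other falls of the leading 10 were between -0.97 and -0.72 on the log2 scale. They were in TENT5D, AP1S3, an adaptor complex subunit, ITGAE, the integrin CD103, UBE2R2, a ubiquitin-conjugating enzyme, SLC44A1, a choline transporter, and the noncoding gene ACTR3-AS1. In ITGAE the levels were 14.02 and 14.2 CPM in DMSO, 8.50 and 11.5 at 150 nM, against 7.91 and 7.43 at 500 nM. In all 10 falls the 150 nM mean lay between the DMSO and the 500 nM means. The DMSO and 500 nM libraries are also those whose difference was used to choose these peaks.

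**Figure D4:**
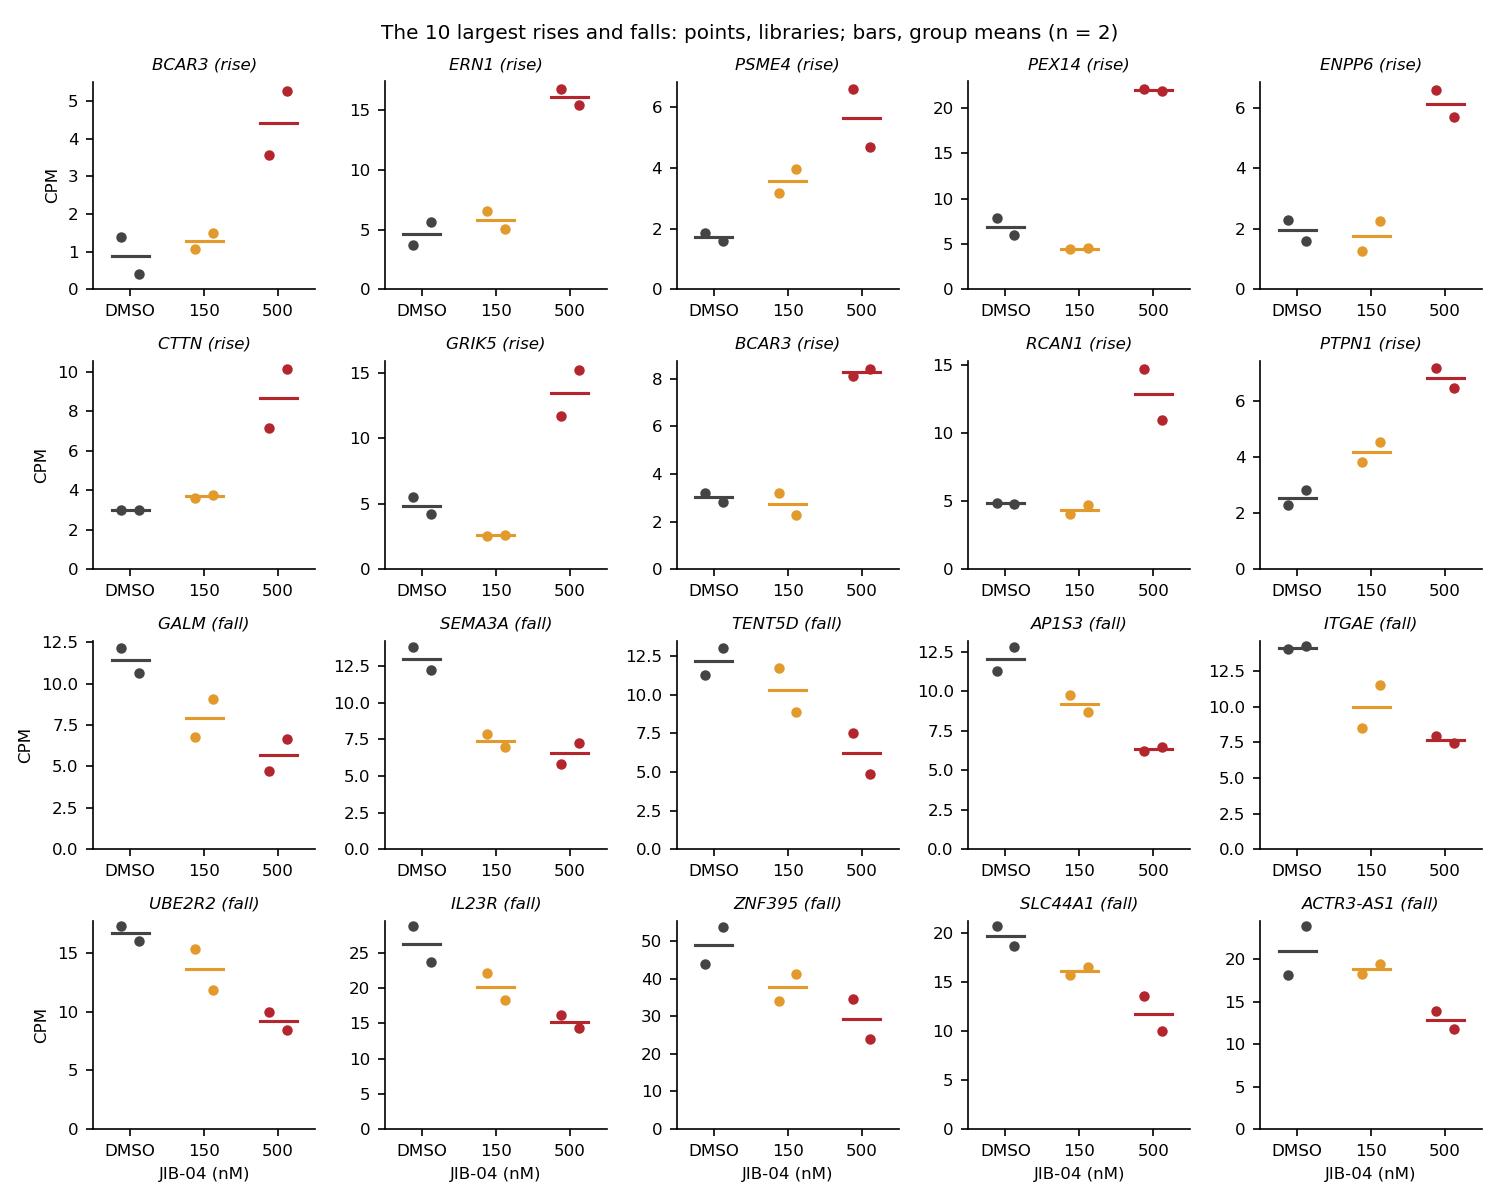
CPM of the 10 largest rises (top 2 lines of panels) and the 10 largest falls (bottom 2 lines) among deep intragenic peaks at 500 nM JIB-04 against DMSO, each axis starting at 0. Points are libraries and bars are means of 2, and in the falls the 150 nM mean stands between the others, whereas PEX14 and GRIK5 are lowest there.

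These calls depended on the libraries in the fit. The count of 96 was 38 without DMSO replicate 1, 21 without DMSO replicate 2, 33 without 500 nM replicate 1 and 24 without 500 nM replicate 2. Leaving out 150 nM replicate 1 gave 335 and leaving out 150 nM replicate 2 gave 329. With the added library term there were 108 rises and 122 falls, so the balance between directions also changed. Of the 20 leading peaks, PEX14 and the ERN1 peak at chr17:64081767-64082933 were those that kept an adjusted p under 0.05 in every alternative that gave one. Without DMSO replicate 2 or without 500 nM replicate 2, 16 of the 20 lost it, and 13 and 14 did so without DMSO replicate 1 and 500 nM replicate 1.

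The called deep peaks among the gene lists were 3, all in chromatin regulators. That was 1 rise and 2 falls of 168 tested peaks of that list at 500 nM against DMSO. Over all 13798 tested deep peaks there were 72 and 24, and the background over all H3K27ac peaks was 0.692% and 0.231%. ARID1A and SMARCA4, both subunits of the SWI/SNF remodelling complex, had a falling peak each, and DNMT3B, a DNA methyltransferase, had a rising one. The SMARCA4 peak at chr19:11048271-11051696 had 94.9 and 92.3 CPM in DMSO, 81.6 and 101 at 150 nM, against 64.8 and 63.9 at 500 nM. Only the 500 nM libraries were low, and the log2 fold change was -0.54 ± 0.11 (adjusted p = 0.00383). The ARID1A peak at chr1:26742122-26745436 had 56.8 and 52.7 CPM in DMSO, 48.0 and 49.4 at 150 nM, against 34.3 and 35.4 at 500 nM, with a log2 fold change of -0.65 ± 0.13 (adjusted p = 0.00205). The DNMT3B peak had 17.2 and 18.7 CPM in DMSO and 29.0 and 26.8 at 500 nM, a rise of 0.63 ± 0.17 (adjusted p = 0.0417). These 3 were picked out after their values were seen. The SMARCA4 and DNMT3B calls were lost without any 1 of the DMSO and 500 nM libraries (adjusted p up to 0.177 and 0.453) and by DESeq2's Wald test (0.0644 and 0.52), and the ARID1A call without DMSO replicate 1 (0.102), 500 nM replicate 1 (0.133) or 500 nM replicate 2 (0.092).

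In the other lists no deep peak passed at 500 nM against DMSO by edgeR, and DESeq2 called 13 of all deep peaks. Of 474 tested peaks of B-cell transcription factors 11 were higher and 23 lower at an unadjusted p under 0.05, with a median log2 fold change of -0.080. The figures were 8 and 7 of 223, with a median of 0.023, for receptor signalling, and 3 and 18 of 216, with -0.12, for migration genes. Survival genes had 4 and 9 of 130, T-cell genes 3 and 5 of 110, Jumonji genes 3 and 4 of 27, and neuronal and fragile-site genes 3 and 25 of 265, the last with a median of -0.22. Over all 13798 these counts were 614 and 757, with a median of -0.059. CNTNAP2 alone gave 88 of the 265 tested neuronal and fragile-site peaks, and 19 of its peaks were above 0. Peaks of the same gene are not independent, so that list's values lean on this host.

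Summing the deep peaks of each host gave 27 called hosts among the 1017 with 5 or more peaks at 500 nM against DMSO, 16 higher and 11 lower (edgeR). The background over all 43218 features of this fit was 0.821% higher and 0.28% lower. Most of these features were single peaks, and a sum over 5 or more peaks has less counting error. The shares were not matched for level, so they do not show whether hosts changed more often. With the added library term 31 were higher and 132 lower. The majority direction also turned with 1 library. There were 3 higher and 11 lower hosts without DMSO replicate 2. Leaving out 150 nM replicate 1 gave 58 and 97, and leaving out 150 nM replicate 2 gave 56 and 93. Leaving out DMSO replicate 1 gave 5 and 1, leaving out 500 nM replicate 1 also 5 and 1, and leaving out 500 nM replicate 2 gave 2 and 0. The leading rises were NLN, the peptidase neurolysin, at 0.99 ± 0.18, GATB, a mitochondrial amidotransferase subunit, at 0.89 ± 0.21, DUSP22 at 0.83 ± 0.16, SNX25, a sorting nexin, at 0.79 ± 0.20, and PLEKHA7, a junction protein, at 0.76 ± 0.13. CCDC12 followed at 0.74 ± 0.11, LITAF, a lipopolysaccharide-induced factor, at 0.58 ± 0.14 and INCR1, a noncoding RNA gene beside the PD-L1 gene CD274, at 0.55 ± 0.10. The leading falls were CAB39L at -0.66 ± 0.11, KDM6A at -0.60 ± 0.15, PLIN3, a lipid droplet protein, at -0.57 ± 0.15, TBXAS1, thromboxane synthase, at -0.48 ± 0.11, KSR2, a Ras pathway scaffold, at -0.46 ± 0.09, LOC105374511 and ARFGEF1-DT at -0.44 ± 0.10 each, and AP1S3 at -0.40 ± 0.09.

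KDM6A, which encodes the H3K27 demethylase UTX of the Jumonji family, held 8 deep peaks. Their summed level was 35.2 and 35.3 CPM in DMSO, 29.5 and 29.2 at 150 nM, against 24.9 and 21.5 at 500 nM. The 3 groups did not overlap and fell in the order of dose (adjusted p = 0.029 at 500 nM against DMSO, edgeR). The single steps did not pass, with log2 fold changes of -0.26 ± 0.14 at 150 nM against DMSO and -0.34 ± 0.15 between doses. The gene was named for its difference between DMSO and 500 nM, so a dose response was not established. All 5 of its tested peaks were below 0 in fold change, and none was called alone. The host call was lost without any 1 of the DMSO and 500 nM libraries (adjusted p = 0.183 to 0.583), while the log2 fold change stayed between -0.71 and -0.50. The H3K4me3 peak over its promoter, printed above, fell as well, with 124 and 123 CPM in DMSO, 117 and 119 at 150 nM, against 107 and 105 at 500 nM, a log2 fold change of -0.22 ± 0.04 (adjusted p = 8.07e-06). KDM4C and JMJD1C, the other Jumonji genes with 5 or more, were not called.

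SMARCA4 was the other called host of the gene lists, at 254 and 251 CPM in DMSO, 217 and 257 at 150 nM, against 199.7 CPM in both 500 nM libraries. DMSO and 500 nM did not overlap, with a log2 fold change of -0.34 ± 0.09 (adjusted p = 0.0466), a call that was lost without any 1 of these 4 libraries (adjusted p = 0.334 to 0.556). Its promoter H3K4me3 fell from 159 and 163 to 139 and 134 CPM, by 0.24 on the log2 scale. DUSP22, a dual-specificity phosphatase, had a rise in H3K27ac that was lost without DMSO replicate 1 (adjusted p = 0.133) or 500 nM replicate 2 (adjusted p = 0.253). Its 6 deep peaks summed to 16.8 and 18.9 CPM in DMSO, 15.3 and 17.3 at 150 nM, against 29.4 and 34.0 at 500 nM (adjusted p = 0.00322), while H3K4me3 over its promoter was 101 and 106 CPM in DMSO and 107 and 111 at 500 nM, a log2 fold change of 0.07 that did not pass (adjusted p = 0.161).

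Some host sums rested on 1 peak and others on many. In PLEKHA7 the sum was 32.0 and 30.3 CPM in DMSO and 52.4 and 52.8 at 500 nM, and 1 peak went from 11.7 and 11.03 to 26.0 and 30.9 CPM while the other 4 tested peaks were not called. In CCDC12 the sum was 75.6 and 80.0 CPM in DMSO, 56.7 and 66.0 at 150 nM, against 126 and 134 at 500 nM, and a peak of 5144 bp alone had 46.9 and 49.3 CPM in DMSO and 83.6 and 93.7 CPM at 500 nM. In CAB39L, a partner of the kinase LKB1, 10 of 11 tested peaks were below 0 and the sum was 98.6 and 87.6 CPM in DMSO and 63.9 and 54.0 at 500 nM. In KSR2 all 9 tested peaks were below 0, with sums of 177 and 202 CPM in DMSO and 138.5 and 137.7 CPM at 500 nM. In none of these 4 genes did DMSO and 500 nM overlap. The calls were lost without DMSO replicate 2 or 500 nM replicate 2 in PLEKHA7 (adjusted p = 0.076 and 0.0587), without DMSO replicate 1 or 500 nM replicate 2 in CAB39L (0.0608 and 0.236), and without DMSO replicate 2, 500 nM replicate 1 or 500 nM replicate 2 in KSR2 (0.364, 0.199 and 0.262).

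**Figure D5:**
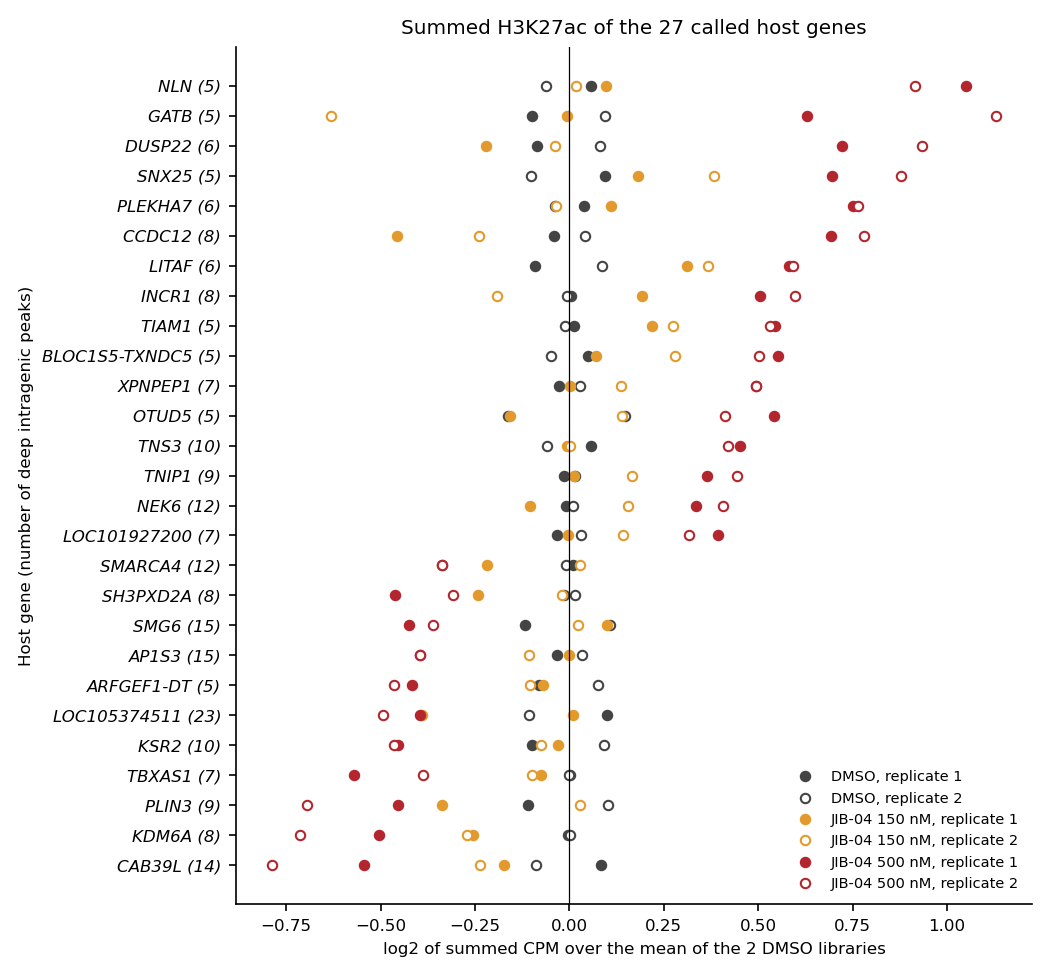
For each of the 27 called host genes, points give the log2 ratio of the summed CPM of its deep intragenic peaks in each library to the mean of the 2 DMSO libraries (filled, replicate 1; open, replicate 2), with the number of peaks in brackets. The 500 nM points stand apart from the DMSO points in all 27, which were chosen by that comparison. KDM6A, CAB39L, TBXAS1, CCDC12 and SH3PXD2A also have both 150 nM points below both DMSO points.

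Among the hosts with most peaks there was no call. In the leading 25 the log2 fold change of the sum lay between -0.28 and 0.11 and was below 0 in 20. CNTNAP2 had 741 and 669 CPM in DMSO, 776 and 611 at 150 nM, against 583 and 575 at 500 nM, a log2 fold change of -0.28 ± 0.08 (adjusted p = 0.0851, edgeR). TCF4 had 740 and 720 CPM in DMSO, 742 and 573 at 150 nM, against 668 and 643 at 500 nM (adjusted p = 0.445). EBF1 had 732 and 708 in DMSO and 689 and 684 at 500 nM (adjusted p = 0.757). In CNTNAP2, TCF4 and EBF1 both 500 nM libraries were below both DMSO libraries, and 150 nM replicate 2 was far below 150 nM replicate 1.

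Of the B-cell transcription factor genes with 5 or more peaks, 16 of 21 had a host fold change below 0, within -0.57 for NFKB1 and 0.25 for PAX5, and none was called. Of the migration genes 8 of 10 were below 0, within a range of -0.27 to 0.21. RHOH stood at -0.27 ± 0.09, P2RY8 at -0.25 ± 0.08 and GNA13 at -0.25 ± 0.10, and none of the 10 was called. Of the receptor signalling genes 4 of 11 were below 0, and none was called. Over all 1017 hosts 62.2% were below 0. EZH2, the H3K27 methyltransferase, stood at -0.45 ± 0.14 (adjusted p = 0.134).

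Host sums were also set beside H3K4me3 at the ends of the host gene, measured in other libraries. Of 759 hosts whose most abundant end peak was tested at 500 nM against DMSO, 80 (10.5%) had an end that rose and 278 (36.6%) one that fell. The background was 20.7% and 18.7% of 20402 tested H3K4me3 peaks, and 19.6% and 20.3% of the 13026 within 1 kb of any gene end. The level of the end peaks was not matched between these sets. Among called hosts with such a peak, 6 of 14 rising and 6 of 9 falling hosts had an end that fell, and 2 and 1 one that rose. Across genes, which are not independent replicates, the Spearman correlation between the fold change of the deep sum and of end H3K4me3 was 0.14 over 759 hosts. With H3K27ac at the host's ends, which comes from the same libraries, it was 0.17 over 783.

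At 150 nM against DMSO no deep peak was called by edgeR, with a background of 0.00185% over all tested peaks, and no host was called, with a background of 0%. At an unadjusted p under 0.05 there were 579 deep peaks, or 4.20% of those tested, and 47 hosts, and DESeq2 called 0 deep peaks. The median log2 fold change was -0.047 for deep peaks and -0.0097 for all peaks. The libraries at 150 nM differed in what they gave when used alone, a fit in which the remaining one is assumed to vary like the other groups. Without 150 nM replicate 1 there were 3 rises and 123 falls among deep peaks and 108 falling hosts, and without 150 nM replicate 2 there was 1 rise, with 2 rising and 1 falling host.

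Between the doses, 146 deep peaks were higher and 11 lower at 500 nM than at 150 nM (edgeR), against a background of 1.09% and 0.185% over all tested peaks. The shares of tested deep peaks were 1.06% and 0.0797%. Of the 72 rises against DMSO, 57 were called here too, and 5 of the 24 falls; the 500 nM libraries are shared by these comparisons. Without 150 nM replicate 1 there were 440 higher and 64 lower, and without 150 nM replicate 2 there were 112 and 62, so the number of falls rose in both. Without either 500 nM replicate 1 or 500 nM replicate 2 there were 67 higher and 3 lower. With the library term there were 140 higher and 46 lower.

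The largest rise between doses was in TOX2, an HMG-box gene, with 0 and 0.565 CPM at 150 nM and 3.77 and 3.72 at 500 nM. These were 3 and 39 reads in all, a ratio of 12.5 with an exact 95% interval of 3.97 to 63.2 that covers counting error only. TTLL7, a tubulin-modifying enzyme, followed with 0.85 and 0.377 against 4.33 and 2.93 CPM, then GRIK5 at 2.36 ± 0.29 and STK4, the Hippo pathway kinase, at 2.32 ± 0.55. In TOX2 the DMSO libraries lay between, at 2.30 and 1.81 CPM, and in TTLL7, at 3.22 and 1.40 CPM, they overlapped those at 500 nM. The largest falls were in ABLIM1, an actin-binding protein, at -1.20 ± 0.28, GPT2, a mitochondrial alanine transaminase, at -0.93 ± 0.17, SORL1, a sorting receptor, at -0.81 ± 0.22, and KAZN at -0.78 ± 0.19. GPT2 had 25.9 and 34.7 CPM at 150 nM and 16.4 and 15.6 at 500 nM, below the 27.1 and 24.7 of DMSO. Among the gene lists 4 deep peaks were called between doses. The background over all tested H3K27ac peaks was 1.09% higher and 0.185% lower, and calls this few say nothing about the lists. ARHGAP24 had a rise from 2.76 and 2.64 to 8.48 and 7.04 CPM, 1 of 216 tested peaks of migration genes, and MEF2C one from 8.71 and 3.77 to 13.0 and 11.1 CPM, 1 of 474 of B-cell transcription factors. The peaks of ARID1A and SMARCA4 described above were lower at 500 nM, 2 of 168 tested peaks of chromatin regulators, with log2 fold changes of -0.48 ± 0.13 and -0.50 ± 0.11.

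Between doses 18 of the 1017 hosts with 5 or more deep peaks were higher and 7 lower. The background was 1.15% and 0.213% over features that were again mostly single peaks and not matched for level. GATB led at 1.19 ± 0.22, followed by AGPS, an enzyme of ether lipid synthesis, at 1.18 ± 0.24, CCDC12 at 1.08 ± 0.11, DUSP22 at 0.95 ± 0.16, NLN at 0.93 ± 0.18, PLEKHA7 at 0.72 ± 0.13, LOC102724495 at 0.71 ± 0.17 and NRF1, a regulator of mitochondrial genes, at 0.62 ± 0.12. NRF1 had 61.8 and 67.4 CPM in DMSO, 52.1 and 46.7 at 150 nM, against 76.7 and 74.5 at 500 nM, again lowest at the lower dose and with no overlap. The lower hosts were LOC100128317, ABLIM1, CAB39L, SMG6, KSR2, EPB41L4B and AP1S3, at -0.73 to -0.34. The balance of directions turned with 1 library: 141 hosts were higher and 33 lower without 150 nM replicate 1, but 23 higher and 68 lower without 150 nM replicate 2. Without 500 nM replicate 1 there were 6 higher and 0 lower, and without 500 nM replicate 2 there were 5 and 0. Of the 15 leading hosts CCDC12 and PLEKHA7 kept an adjusted p under 0.05 in every alternative run.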

How the data were processed

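ChIP-seq read counts per consensus peak were deposited by the authors for each mark. They were made with featureCounts 2.0.1 (0.2 of a read inside the peak, unstranded, paired option), per the file headers, whereas the labels describe single-end reads. The submitters' processing notes name Trim Galore 0.6.7, BWA 0.7.17-r1188, Picard 2.27.4, MACS2 2.2.7.1, deepTools 3.5.1, edgeR 3.42.4 and GRCh38. Of 30 libraries, 6 for H3K27ac and 6 for H3K4me3 were used, and H3K9me2, H3K9me3 and input libraries were not analysed here.

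Peak starts were made 1-based and peaks were placed against 59792 RefSeq genes (GRCh38.p14). A peak inside more than 1 gene was given to a protein-coding gene first and then to the shortest. Depth means reads in peaks, and counting limits the precision for weak peaks. Counts over all peaks of a mark were fitted with edgeR 4.0.16 (R 4.3.3; low-count filter by group, TMM, quasi-likelihood test, 6 libraries), with Benjamini-Hochberg adjustment over all tested peaks and 0.05 as the threshold. Every adjusted p is from this test unless DESeq2 1.42.0 is named. Host sums replaced the deep peaks of each gene in the same fit. SE is of the log2 fold change. Single values were compared by exact permutation of 2 against 2 libraries. The scripts were tested on simulated data. The rule for names took the 10 largest called rises and falls (4 between doses), the 25 hosts with most peaks, up to 8 called hosts per direction and the 8 highest peaks per kb. Peaks named as rises or falls were also required to have no overlap between the libraries of the groups compared. Alternatives were another normalization, other filters, DESeq2, a replicate block, the 4 libraries of a contrast alone, each library left out, another host rule and another distance. Peaks, gene lists and rules were chosen with earlier results of these data known. Some genes of the lists are not reported here.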

Additional observations from a re-analysis of the deposited data

How the results depend on the processing

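The differences between replicates 1 and 2 correlated over all tested peaks at 0.133 (DMSO and 150 nM), 0.0026 (DMSO and 500 nM) and 0.0575 (150 nM and 500 nM). Such weak correlations over peaks with few reads cannot show whether replicate numbers paired the libraries. With a replicate block the counts of called deep peaks were 214 at 500 nM against DMSO (96 without it, all of them kept), 0 at 150 nM against DMSO and 275 between doses (157 without it), and those of called hosts were 83, 0 and 73. With the added library term, chosen after seeing the data, there were 230 deep peaks and 163 hosts at 500 nM against DMSO, 2 hosts at 150 nM and 76 hosts between doses (27 higher, 49 lower). In the 4 libraries of the contrast alone, 384 deep peaks and 171 hosts were called at 500 nM against DMSO, and 96 and 15 between doses. DESeq2's Wald test called 13 deep peaks at 500 nM against DMSO, of 4002 with an adjusted p, and 36 between doses. A mean count of at least 50 left 49 and 88 called, and a distance of more than 20 kb left 48 and 87. Leaving out 1 library gave 21 to 335 deep peaks at 500 nM against DMSO, 0 to 126 at 150 nM and 70 to 504 between doses, and 2 to 155, 0 to 108 and 5 to 174 hosts. With the mean in place of the median, deep peaks moved by -0.078 (log2) against gene-end peaks at 500 nM. None of the leading called peaks and host sums for which alternatives were run changed direction. The causes were not tested. Most deep peaks had fewer than 50 reads, and changes in them were rarely detectable.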
